A study of Homo sapiens with 6 samples.

Results

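The transcripts of 9 transcription factors that drive differentiation of the epidermis were followed in a human keratinocyte line with and without the receptor FGFR2. The factors were *KLF4*, the 3 grainyhead-like genes *GRHL1*, *GRHL2* and *GRHL3*, *OVOL1*, *ZNF750*, *GATA3*, *CEBPA* and *PRDM1*. They were chosen by name for their role and make up 9 of the 21475 genes listed in the expression tables. These factors and the gene lists below were chosen with earlier results of these data known. All libraries came from HaCaT cells, a spontaneously immortalized line of human skin keratinocytes, cultured in high-glucose DMEM with 10% fetal bovine serum. The study compared 3 wild-type (WT) lines with 3 *FGFR2* knockout (KO) lines made with a Cas9 ribonucleoprotein aimed at exon 7 of *FGFR2*, at 1 RNA-seq library per line, and lines are numbered here by the replicate number of the library. Each KO line was grown from 1 sorted cell. The WT lines of the whole study included clones and the uncloned starting population. For its RNA-seq, however, a figure legend describes 3 HaCaT lines as clonally expanded. Lines may thus differ by clonal history as well as by *FGFR2*. Which of these WT lines a library came from was not used here. By the study's own account, HaCaT clones obtained this way were unsuitable for following terminal differentiation, which limits them as a model of it. Neither group received an added growth factor or inflammatory stimulus. Poly(A) RNA was sequenced, and levels are in FPKM, fragments scaled to gene length and sequencing depth, so that genes of different length can be compared.

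Keratinocytes of the basal layer divide under the control of TP63, and on leaving that layer they switch on keratins 1 and 10, desmosomal cadherins and then the proteins of the cornified envelope. The factors act at different points of this programme. GRHL proteins open and activate enhancers of epithelial and barrier genes, OVOL1 and ZNF750 repress progenitor genes, ZNF750 lies downstream of TP63 and upstream of *KLF4*, and KLF4 and CEBPA activate genes of the suprabasal layers. GATA3 takes part in lipid synthesis and barrier formation, and PRDM1, also called BLIMP1, marks granular cells in the final step. FGFR2, in its epithelial form FGFR2b, is the keratinocyte receptor for FGF7 and FGF10.

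The start regions of some of these genes and their targets carry short motifs of KLF, grainyhead or AP-1 (FOS and JUN) proteins, and are shown so that the loci behind the expression values can be seen. RefSeq start regions, from 250 bases before to 50 bases after the start (GRCh38.p14), were searched on both strands for the grainyhead motif AACCGGTT, which is its own reverse complement, the KLF motif CCCCACCC (GGGTGGGG) and the AP-1 motif TGACTCA, whose reverse complement reads TGAGTCA. Start regions were matched for 6 of the 9 factors, without *GRHL2*, *OVOL1* and *ZNF750*. The KLF motif stood in a start region of 3 of these 6 genes, *GATA3*, *GRHL3* and *PRDM1*. It stood in that of 4 of 7 matched early and 3 of 18 matched late differentiation genes, and of 0 of 3 matched epithelial target genes. Of all 35116 start regions, 11.1% held it. The AP-1 motif stood in that of *GATA3* and *PRDM1*, of 3 of 7 early genes and of 7 of 18 late genes, among them *IVL*. It also stood in that of 1 of the 3 epithelial genes and in 4.95% of all start regions. The grainyhead motif stood in none of the 6 and in 0.134% of all. Among the 3 matched epithelial genes regulated by GRHL and OVOL factors, *ARHGEF19*, a GRHL3 target, carried it. Genes with several starts have several chances to hold a motif, and a match is a description of the sequence only. The 250 bases before the start are given 5′ to 3′ on the strand of the gene, with motifs in capitals, for *GRHL3* (chr1:24319107-24319356, plus strand, the first of 2 starts), *GATA3* (chr10:8045083-8045332, plus strand, the first of 6), *ARHGEF19* (chr1:16212653-16212902, minus strand) and the early differentiation genes *DSG1* (chr18:31317910-31318159, plus strand) and *KRTDAP* (chr19:35490465-35490714, minus strand). The capitals are the KLF motif in *GRHL3*, *GATA3* and *DSG1*, the AP-1 motif and then the KLF motif in *KRTDAP*, and the grainyhead motif in *ARHGEF19*. The other starts of *GRHL3* and *GATA3* did not hold the KLF motif.
GRHL3: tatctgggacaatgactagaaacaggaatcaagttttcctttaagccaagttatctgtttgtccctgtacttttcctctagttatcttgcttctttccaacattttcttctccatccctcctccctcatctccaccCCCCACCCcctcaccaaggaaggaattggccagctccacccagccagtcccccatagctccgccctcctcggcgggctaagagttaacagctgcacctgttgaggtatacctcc
GATA3: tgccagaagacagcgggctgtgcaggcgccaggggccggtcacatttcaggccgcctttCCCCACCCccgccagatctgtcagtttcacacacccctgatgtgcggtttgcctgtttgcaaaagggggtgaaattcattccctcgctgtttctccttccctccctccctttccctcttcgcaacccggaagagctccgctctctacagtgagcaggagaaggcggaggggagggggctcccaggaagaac
DSG1: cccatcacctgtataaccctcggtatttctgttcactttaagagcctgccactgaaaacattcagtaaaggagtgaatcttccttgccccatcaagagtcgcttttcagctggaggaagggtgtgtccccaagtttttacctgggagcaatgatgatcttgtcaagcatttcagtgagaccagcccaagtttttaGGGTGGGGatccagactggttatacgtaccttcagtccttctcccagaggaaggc
KRTDAP: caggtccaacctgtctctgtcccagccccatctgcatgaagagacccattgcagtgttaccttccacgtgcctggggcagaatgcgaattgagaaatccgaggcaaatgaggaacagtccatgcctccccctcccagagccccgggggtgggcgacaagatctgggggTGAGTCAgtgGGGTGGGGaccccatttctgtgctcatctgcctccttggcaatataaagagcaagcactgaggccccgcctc
ARHGEF19: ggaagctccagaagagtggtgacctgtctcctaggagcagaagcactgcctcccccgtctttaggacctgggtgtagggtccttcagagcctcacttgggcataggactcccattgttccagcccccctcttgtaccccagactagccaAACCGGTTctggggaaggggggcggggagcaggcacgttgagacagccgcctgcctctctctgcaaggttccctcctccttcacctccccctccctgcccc

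The targeted gene was low in every KO line. *FGFR2* was at 21.6, 39.7 and 15.0 FPKM in WT lines 1 to 3 and at 3.04, 2.26 and 4.31 FPKM in KO lines 1 to 3, a KO mean of 12.6% of the WT mean. Its log2 fold change was −2.73 (SE 0.36), with a limma p adjusted over all genes of 0.261. No gene of the 12241 tested passed an adjusted p of 0.05 together with an absolute log2 fold change of 0.5, which is 0% called. The libraries held an estimated 67600000 to 87700000 fragments. Mitochondrial genes took 21.5 to 27.6% of the FPKM sum in WT and 15.8, 23.7 and 11.9% in KO lines 1 to 3. The 5 keratinocyte markers summed to 10031 to 16799 FPKM in WT and 13672 to 25053 FPKM in KO. Other lineages were far lower, with summed markers of 7.99 to 33.2 and 6.91 to 12.6 FPKM for fibroblasts (6 genes), 3.06 to 5.58 and 1.24 to 4.86 for melanocytes (5 genes), 11.6 to 20.5 and 4.49 to 11.0 for immune cells (4 genes, mostly *CD68*) and 18.1 to 27.2 and 5.82 to 17.5 for endothelium (3 genes, mostly *VWF*), WT first. *COL1A2*, *COL3A1*, *PDGFRB*, *MLANA*, *TYR*, *DCT*, *CD3D* and *CD3E* stayed below 0.1 FPKM in all 6 libraries. Other markers did not: *COL1A1* was at 6.82 to 16.7 FPKM and *MITF* at 0.529 to 4.01 FPKM. WT line 2 stood apart for *DCN*, at 15.5 FPKM against 1.66 or less elsewhere. It also did so for *CDH5*, at 4.92 FPKM against 0.128 or less elsewhere. The part of these markers in the results below was not tested. In bulk RNA, fewer cells of a type and less RNA per cell cannot be told apart, and p-values here measure the spread between these lines only.

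The 9 factors spanned more than 2 orders of magnitude. By the mean of the 6 libraries, *GRHL2* stood highest at 54.4 ± 6.71 FPKM (SD, n = 6), followed by *OVOL1* at 41.8 ± 9.13, *GRHL3* at 36.8 ± 4.69 and *GATA3* at 29.7 ± 14.5. *GRHL1* reached 16.4 ± 5.74, *CEBPA* 11.7 ± 2.99 and *KLF4* 8.91 ± 3.08 FPKM. *ZNF750* at 0.923 ± 0.961 and *PRDM1* at 0.310 ± 0.090 FPKM were the lowest, on about 62 to 765 and 83 to 174 fragments a library. Most neighbours in this order were not separated: the ranges of *KLF4* and *ZNF750* did not overlap, whereas those of every other adjacent pair did. *GRHL2* exceeded *OVOL1* in 5 of 6 libraries, *OVOL1* exceeded *GRHL3* in 3 and *GRHL3* exceeded *GATA3* in 4. For comparison, *TP63*, the regulator of the basal state, lay between 116 and 155 FPKM.

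No factor passed the adjusted test, and at the looser rule of an unadjusted limma p up to 0.05 and a log2 fold change of 0.5 or more in either direction, *GATA3* was past it, on the lower side. That is 1 of the 8 factors that passed the filter of a mean of 0.5 FPKM, against 12.5% of all tested genes (10.2% higher and 2.33% lower in KO). The KO lines did not overlap the WT lines for 1 of the 8, *GRHL2*, against 24.1% of all tested genes (18.3% above and 5.77% below). The mean log2 level was higher in KO for 4 of the 8, against 60.6% of all tested genes, and their median log2 fold change was 0.02 (−0.21 without KO line 1 to 0.19 without WT line 3), against 0.09 over all. These shares lie near or below the background. *PRDM1* did not pass the filter. The split of all genes past the unadjusted rule was 1251 higher and 285 lower, and 818 and 488 with median-of-ratios scaling between libraries. With library weights estimated by limma, 2 of the 8 factors passed the adjusted test, *OVOL1* (0.70, adjusted p = 0.0340) and *GATA3* (−1.23, adjusted p = 0.0388), in a fit where WT line 1 alone held 89.7% of the weight of its group.

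Among the grainyhead-like factors, *GRHL2* was the steadiest gene of the group and the factor for which the KO lines all lay above the WT lines. *GRHL2* (ENSG00000083307, chromosome 8) keeps epithelial cells epithelial through junction genes such as *CDH1*. It was at 48.5, 51.0 and 50.4 FPKM in WT and at 56.8, 53.0 and 66.8 FPKM in KO. The WT libraries lay close together (SD 1.32 FPKM), and the KO libraries were higher and more scattered (SD 7.14). The log2 fold change was 0.23 (SE 0.13, 95% interval −0.08 to 0.54, limma adjusted p = 0.408), and the two-sided exact permutation p was 0.1, the smallest that 3 against 3 lines can give. Genes of chromosome 8 as a whole were also higher in KO. The median deviation of its 407 tested genes from the mean of the 6 libraries was −0.11, −0.17 and −0.04 log2 units in WT. It was 0.11, −0.01 and 0.22 in KO, a difference of 0.21 between the group means. All tested genes together moved in the same direction by less. Their medians were −0.09, −0.02 and −0.04 in WT and 0.05, 0.01 and 0.10 in KO. With the median of each chromosome subtracted in each library, the *GRHL2* difference was 0.02, and with median-of-ratios scaling it was 0.13.

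*GRHL3* and *GRHL1* overlapped between the groups. *GRHL3* (ENSG00000158055, chromosome 1), required for barrier formation and wound closure, was at 31, 43.9 and 39.3 FPKM in WT and at 35.1, 38.5 and 33.1 FPKM in KO, so that all 3 KO values lay inside the WT range. Its log2 fold change was −0.08 (SE 0.16, 95% interval −0.46 to 0.29). *GRHL1* (ENSG00000134317, chromosome 2), an activator of desmosomal cadherin genes including *DSG1*, was at 15.6, 11.6 and 24.5 FPKM in WT and at 22.5, 13.3 and 11.1 FPKM in KO. A line of each group, WT line 3 and KO line 1, stood above the others. The log2 fold change of *GRHL1* was −0.14 (SE 0.33, 95% interval −0.92 to 0.64). The limma adjusted p-values were 0.808 and 0.849. Leaving out each line in turn gave −0.22 to 0.024 for *GRHL3*, above 0 without WT line 2, and −0.43 to 0.14 for *GRHL1*, above 0 without WT line 3 or KO line 3.

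*OVOL1* and *KLF4* had higher means in KO, but with overlap. *OVOL1* (ENSG00000172818, chromosome 11), a zinc finger repressor that lets progenitors leave the cell cycle, was at 30.4, 42.1 and 35.3 FPKM in WT and at 56.9, 40.5 and 45.7 FPKM in KO. The groups crossed at a single point, since KO line 2 was just below WT line 2. The difference in log2 means was 0.40 (SE 0.18, 95% interval −0.02 to 0.83, limma adjusted p = 0.309). *KLF4* (ENSG00000136826, chromosome 9), a zinc finger factor needed for the skin barrier, was at 7.88, 3.30 and 10.7 FPKM in WT and at 11.6, 8.98 and 11.0 FPKM in KO. The KO lines lay close together, with a coefficient of variation of 13.1% against 51.1% in WT, where line 2 was low. For *KLF4* the log2 fold change was 0.63 (SE 0.37, 95% interval −0.24 to 1.5, limma adjusted p = 0.41), and 0.18 without WT line 2. The median deviation of the 493 tested genes of chromosome 9 was −0.23 log2 units in WT line 2. Between the group means it differed by 0.21. With chromosome medians subtracted the *KLF4* difference was 0.43.

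*GATA3* had the largest absolute difference in log2 mean of the 8 factors tested and was lower in KO. *GATA3* (ENSG00000107485, chromosome 10) was at 39.5, 50.3 and 25.9 FPKM in WT and at 11.9, 34.5 and 16.4 FPKM in KO, a KO mean of 20.9 ± 12.0 FPKM (SD, n = 3), or 54.3% of the WT mean of 38.6 ± 12.2. KO lines 1 and 3 lay below every WT line, whereas KO line 2 lay above WT line 3. The log2 fold change was −0.96 (SE 0.40, 95% interval −1.89 to −0.03), with an unadjusted limma p of 0.0448, an adjusted p of 0.288 and a two-sided exact permutation p of 0.2. Without KO line 1 the difference was −0.63. *GATA3* no longer passed the unadjusted rule without WT line 1, WT line 2, KO line 1 or KO line 3, where the limma p was 0.0963, 0.135, 0.143 and 0.121. The call was also lost with no filter on low genes, without the variance trend and with chromosome medians removed, at unadjusted limma p-values of 0.0714, 0.0529 and 0.0505. *GATA3* shares its chromosome with *FGFR2*, and the median deviation of the 463 tested genes of chromosome 10 was 0.06, 0.24 and −0.08 log2 units in WT and −0.27, −0.02 and 0.05 in KO, a difference of −0.15 between the group means. With chromosome medians subtracted the *GATA3* difference was −0.81.

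*CEBPA*, *ZNF750* and *PRDM1* did not separate the groups, and *ZNF750* differed far more between lines than between genotypes. *CEBPA* (ENSG00000245848, chromosome 19), a leucine zipper factor that slows growth, was at 9.98, 13.1 and 12.1 FPKM in WT and at 16.8, 9.65 and 8.62 FPKM in KO, with both group means at 11.7. KO line 1 was highest and the other 2 KO lines were lowest. The log2 difference between the groups was −0.06 (SE 0.26, 95% interval −0.66 to 0.54, limma adjusted p = 0.926), and leaving out WT line 2, KO line 2 or KO line 3 turned it to 0.025, 0.046 and 0.12. *ZNF750* (ENSG00000141579, chromosome 17) was at 0.727, 0.339 and 1.13 FPKM in WT and at 2.76, 0.353 and 0.227 FPKM in KO. Its highest and lowest libraries were both KO and differed by 12.2-fold, on about 765 and 62 fragments. The log2 fold change of *ZNF750* was 0.09 (SE 0.58, 95% interval −1.26 to 1.44, limma adjusted p = 0.949), and it was −0.59 without KO line 1 and −0.16 without WT line 2.

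*PRDM1* (ENSG00000057657, chromosome 6) was at 0.388, 0.238 and 0.396 FPKM in WT and at 0.385, 0.260 and 0.193 FPKM in KO, on about 83 to 174 fragments a library. Its means of 0.341 ± 0.089 and 0.279 ± 0.097 FPKM (SD, n = 3) differed by less than 1 SD, and the two-sided exact permutation p was 0.5. All 9 factors overlap an annotated gene on the other strand, and the strand setting of the quantification is not given in the sources used here. For the lowest factors these neighbours are more abundant. *TBCD*, which spans *ZNF750*, was at 59.0 to 99.5 FPKM and *ATG5*, which overlaps *PRDM1*, at 11.5 to 15.5 FPKM. *TBCD* was at 86.3 and 99.5 FPKM in KO lines 1 and 3, the highest and lowest libraries for *ZNF750*.

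For *ZNF750*, *GRHL1*, *CEBPA* and *GRHL3* the SD between lines of 1 genotype was larger than the absolute log2 difference between the genotypes. For *GATA3*, *KLF4*, *OVOL1* and *GRHL2* it was smaller. The pooled SD within groups was 0.91 log2 units for *ZNF750*, 0.64 for *GATA3*, 0.58 for *KLF4* and 0.52 for *GRHL1*, against a median of 0.24 over all tested genes, and 2.80%, 6.67%, 8.18% and 10.7% of tested genes had a larger one. *CEBPA* was at 0.38 and *OVOL1* at 0.24. *GRHL3* at 0.19 and *GRHL2* at 0.12 varied less than most genes. Early and late differentiation genes varied more than the factors, whose median SD was 0.45, but the 7 epithelial genes regulated by GRHL and OVOL factors did not (0.25). The 9 early differentiation genes had a median SD of 1.60, with all 9 above the median of all genes, and the 20 late genes that were tested had 0.97, with 19 of 20 above it.

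Some factors took the same order of lines as the early differentiation genes. *KRT1*, a keratin of the first suprabasal layer, was at 2254, 435 and 5121 FPKM in WT and at 3024, 1145 and 259 FPKM in KO. *KRT10*, its partner, was at 956, 607 and 2056 FPKM in WT and at 1503, 530 and 86.2 FPKM in KO. WT line 3 and KO line 1 were thus the highest and KO line 3 the lowest, with 23.8-fold between the extremes for *KRT10*. *DSG1*, a desmosomal cadherin, ran from 1.24 FPKM in KO line 3 to 52.0 in KO line 1, and *KRTDAP*, a secreted suprabasal protein, from 0.253 to 37.0 FPKM in the same 2 lines.

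WT line 3 and KO line 1 were the highest 2 libraries for 8 of 9 early genes, 10 of 20 late genes and 2 of the 8 factors, *GRHL1* and *ZNF750*, against 7.03% of all tested genes. KO line 3 was the lowest library for 7 of 9 early genes, 11 of 20 late genes and 3 of the 8 factors, *GRHL1*, *ZNF750* and *CEBPA*, against 20.3%. The median deviation of the early genes from the mean of the 6 libraries was 0.02, −0.68 and 1.64 log2 units in WT and 1.23, −0.32 and −1.68 in KO. *KLF4* took part of this order, low in WT line 2, but did not share the low value of KO line 3. This order of lines was picked after the values were seen, so it is a description and carries no test. It stands across genotypes, since the 2 lines with the most early differentiation transcripts were 1 WT and 1 KO line.

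*GATA3* followed a different order, with WT lines 1 and 2 highest and KO lines 1 and 3 lowest. This order was read from *GATA3* itself, so it is a description and carries no test. It occurred in 3.67% of all tested genes, in 2 of 16 other differentiation factors, *ELF3* and *POU2F3*, and in 0 of 9 early genes and 0 of 9 progenitor factors. Among 20 late genes it held for 1, *IVL*, the envelope precursor involucrin, at 338, 324 and 180 FPKM in WT and 79.7, 265 and 81.8 FPKM in KO, and among 10 basal genes for 1, the keratin *KRT15*. The early genes thus did not go with *GATA3*: in KO line 1 the early median was 1.23 log2 units above the mean and *GATA3* was at its lowest value.

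Over the 6 libraries, the tested genes with the profile nearest to each of the most variable factors were found by the root mean square difference of centred log2 values. Nearest to *KLF4* were *DLX1* (0.11) and *PTMA* (0.12), and to *GATA3* were *CRAT* (0.14) and *EPB41L4A* (0.15). *DLX1*, a homeobox gene, was at 14.7, 6.32 and 17.4 FPKM in WT and 17.7, 13.6 and 18.3 FPKM in KO, which repeats the low WT line 2 of *KLF4*. With 6 libraries and 12241 genes, some genes will lie close to any profile.

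The other factors of the programme were described from a list of 17, of which 16 were tested. As this list was chosen with earlier results of these data known, its shares are a description only. None passed the adjusted threshold. At the unadjusted rule 0 were higher and 3 lower in KO, against 10.2% and 2.33% of all tested genes, and their median log2 fold change was −0.22 against 0.09 over all (−0.04 without KO line 3). *MAF*, a leucine zipper factor of late differentiation, was at 13.5, 8.98 and 11.7 FPKM in WT and at 7.05, 4.82 and 0.901 FPKM in KO, with no overlap (log2 fold change −1.62, SE 0.57, limma adjusted p = 0.261). *MAF* was the 1 factor of the 16 whose KO lines all lay below the WT lines, against 5.77% of all tested genes. *ELF3*, an epithelial ETS factor, was at 116, 358 and 77.4 FPKM in WT and at 45.9, 108 and 21.0 FPKM in KO (log2 fold change −1.64, SE 0.70). *POU2F3*, a POU factor of suprabasal cells, was at 10.4, 14.5 and 6.69 FPKM in WT and at 3.68, 9.03 and 1.94 FPKM in KO (log2 fold change −1.20, SE 0.49). The last 2 overlapped between groups, each through KO line 2.

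Partners and opponents of the factors were past the unadjusted rule about as often as all tested genes, of which 12.5% were (10.2% higher and 2.33% lower). Of 6 corepressor genes that act with ZNF750, 1 was past the unadjusted rule, *KDM1A*, the histone demethylase LSD1. It was at 117, 131 and 94.5 FPKM in WT and at 203, 238 and 252 FPKM in KO (log2 fold change 1.02, SE 0.17, limma adjusted p = 0.261). The WT mean of 114 and the KO mean of 231 FPKM stand beside *ZNF750*, which was at or below 1.13 FPKM in 5 of 6 libraries. Of 9 progenitor factors, 1 was past the rule, *MYC*, at 18.6, 29.3 and 25.2 FPKM in WT and 44.1, 29.3 and 57.7 FPKM in KO (log2 fold change 0.80, SE 0.27, limma adjusted p = 0.261). *TP63* had a log2 fold change of −0.02 (SE 0.17, limma adjusted p = 0.965). The medians of these lists were 0.07 and −0.04.

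Most structural genes of the programme had lower means in KO, but none passed the adjusted test and the direction turned when a single line was left out. Of all 12241 tested genes, 4821 had a lower mean log2 level in KO, and 10.2% were past the unadjusted rule on the higher and 2.33% on the lower side. Of the 9 early genes 8 had a lower mean log2 level, with 0 past the unadjusted rule in either direction and a median log2 fold change of −0.59. Of the 20 late genes 15 had a lower mean, with 0 higher and 2 lower past the unadjusted rule, *IVL* (log2 fold change −1.17, SE 0.48, limma adjusted p = 0.285) and *CNFN*, or cornifelin (−0.92, SE 0.27, limma adjusted p = 0.261), and a median of −0.42. Both medians depended on single lines: that of the early genes was 0.38 without WT line 3 and 0.32 without KO line 3, with 4 and 2 of 9 genes lower, and −1.65 without KO line 1. For the late genes it was 0.01 without either WT line 3 or KO line 3, with 10 of 20 lower in each case. The errors were wide, as for *KRT10* at −1.37 (SE 0.96). *TGM1*, the transglutaminase that cross-links the envelope, was at 61.6, 54.5 and 106 FPKM in WT and at 103, 78.1 and 22.4 FPKM in KO. The basal keratins *KRT5* and *KRT14* had log2 fold changes of 0.41 (SE 0.35) and 0.40 (SE 0.39).

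The 7 epithelial genes regulated by GRHL and OVOL factors had a median log2 fold change of −0.09 (−0.28 without KO line 1), against 0.09 over all tested genes. Of the 7, 0 were past the unadjusted rule, against 12.5% of all tested genes (10.2% higher and 2.33% lower). *CDH1*, the E-cadherin gene, was at 243, 246 and 235 FPKM in WT and at 222, 213 and 166 FPKM in KO, below WT in all 3 lines, with a log2 fold change of −0.28 (SE 0.15, limma adjusted p = 0.386). All KO lines lay below all WT lines for 1 of the 7 genes, against 5.77% of all tested genes. The direction of *CDH1* was opposite to that of *GRHL2*. Of the 7 genes, 3 had a higher mean log2 level in KO, against 60.6% of all tested genes, among them *EPCAM* (0.26, SE 0.16). *ARHGEF19*, the gene with the grainyhead motif shown above, was at 23.8, 20.3 and 21.4 FPKM in WT and at 17.0, 29.6 and 32.3 FPKM in KO (log2 fold change 0.21, SE 0.24) beside −0.08 for *GRHL3*. Of 7 mesenchymal transition genes that OVOL and GRHL factors oppose, 2 were expressed enough to be tested, *SNAI2* (log2 fold change 0.12, SE 0.20) and *CDH2* (1.26, SE 0.60), neither past the unadjusted rule. *CDH2*, or N-cadherin, was at 0.560, 0.317 and 0.514 FPKM in WT and at 0.459, 1.59 and 5.50 FPKM in KO, highest in KO line 3, where *CDH1* was lowest and *GRHL2* highest. The other epithelial genes of this list were mixed there. KO line 3 was the lowest library for *RAB25*, *ESRP1* and *ESRP2* but the highest for *EPCAM*, at 126 FPKM, and for *ARHGEF19*. The untested transition genes, *VIM* among them, reached at most 0.285 FPKM, for *TWIST1* in KO line 1.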

How the data were processed

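Gene levels were deposited as FPKM per gene and library, 1 table per line. Per the labels and the study's methods, the authors trimmed reads with fastp 0.20.0 and quantified them with kallisto 0.46.1 on GRCh38.p13 and GENCODE release 37. How FPKM were derived is not given in the sources used here. Symbols and positions came from GENCODE release 44 by Ensembl ID. 18 Y copies of pseudoautosomal genes were left out.

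FPKM are not counts, so limma 3.58.1 (R 4.3.3) was run on log2(FPKM + 0.5) with a mean-variance trend for the 12241 genes whose mean reached 0.5 FPKM, with Benjamini-Hochberg adjustment over all of them. Fold changes on this scale understate those of low genes. Genes were called at an adjusted p up to 0.05 and a log2 fold change of 0.5 or more in either direction. Single genes also had a two-sided exact permutation test over the 6 libraries.

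Depth was estimated from the steps of low values in single-transcript genes. Of 1993 such values 70.5% came out whole within 0.02 fragments, too few for a count model, so fragment numbers are approximate. Evenly spread values would give 4%, but each depth was chosen to bring these same values closest to whole numbers. The 2 shares are therefore not a test. The members and lists were chosen with earlier results of these data known. Besides the members and *FGFR2*, up to 8 genes a list with the lowest p were named, plus fixed markers, and the 2 genes nearest in profile to each factor whose SD over the 6 libraries was at least 0.5 (for *ZNF750* these are not reported here). Further names in counts of lines and in the plots were chosen after their values were seen. The alternatives tried were other pseudocounts, filters, scalings and variance models, library weights, a replicate block, leaving out each line, and, added after the data were seen, removal of chromosome medians.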

Additional observations from a re-analysis of the deposited data

How the results depend on the processing

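With 3 lines a group, 1 library each and an exact test that cannot go below 0.1, small differences could not be detected. Large ones could also be missed: *FGFR2* itself, at −2.73, did not pass in the main fit (limma adjusted p = 0.261). A factor that did not pass may therefore still differ. *ZNF750* and *PRDM1* rest on few fragments. No gene, list gene or factor passed the adjusted test under 18 of 19 alternatives. Library weights gave 1396 genes, 11 list genes and 2 factors, with *FGFR2* at −2.66 (adjusted p = 0.0191). WT line 1 then held 89.7% of the WT weight and KO line 1 60.6% of the KO weight. *KLF4*, *GRHL2*, *OVOL1* and *GATA3* kept their direction under all 19 alternatives, with adjusted limma p-values of 0.20 to 0.752, 0.117 to 0.946, 0.0340 to 0.646 and 0.0388 to 0.674. Leaving out each line gave 0.18 to 0.96 for *KLF4*, 0.14 to 0.30 for *GRHL2*, 0.27 to 0.52 for *OVOL1* and −1.38 to −0.63 for *GATA3*. With chromosome medians removed, the *GRHL2* difference kept its sign but was near 0, at 0.02 (SE 0.11).

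Differences near 0 changed sign. Library weights gave 0.15 for *GRHL1*, 0.16 for *GRHL3* and 0.37 for *CEBPA*. *ZNF750* was at −0.025 with a pseudocount of 0.1 and −0.10 with chromosome medians removed, an alternative added after the data were seen. The cause was not tested. Leaving out each line gave −0.43 to 0.14 for *GRHL1*, −0.22 to 0.024 for *GRHL3*, −0.34 to 0.12 for *CEBPA* and −0.59 to 0.49 for *ZNF750*. With a minimum mean of 2 FPKM *ZNF750* was not tested.

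Genes past the unadjusted rule numbered 1536, and 633 (without KO line 3) to 2262 (without KO line 2) when a line was left out. The median log2 fold change of all genes was 0.09, and −0.02 to 0.13 under other scalings, weights and chromosome medians. The split of 1251 higher and 285 lower became 818 and 488 with median-of-ratios scaling, 807 and 500 with quantile normalization, 930 and 400 with the sum of nuclear genes, and 762 and 492 with chromosome medians removed.

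Whether the replicate numbers pair the lines is not given in the labels and was not settled here. The correlations of same-numbered lines' deviations were −0.21, 0.23 and 0.05, and those of differently numbered lines ran from −0.37 to 0.29. With the replicate block, 0 genes passed the adjusted test and 1762 the unadjusted rule, and *FGFR2* stood at −2.73 (limma adjusted p = 0.0972) and *GATA3* at −0.96 (limma adjusted p = 0.151). The block changed no call of the adjusted test, while 1536 genes had passed the unadjusted rule without it. It lowered the SE of *GATA3* and *KLF4* to 0.25 and 0.27. It raised those of *GRHL2*, *OVOL1* and *CEBPA* to 0.15, 0.21 and 0.27. The unadjusted limma p of *GATA3* was 0.0091 with the block.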
